A study of Arabidopsis thaliana with 9 samples.

Results

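The nuclear photosynthesis genes are the loci on the 5 chromosomes of Arabidopsis thaliana that the submitters' tables annotate with the Gene Ontology process term photosynthesis. Of 22555 genes in the tables, 99 nuclear genes carried the term. A gene was kept as a member when it reached 1 FPKM (mapped fragments scaled to transcript length and to library size) or more in at least 3 of the 9 libraries, which left 58 members and 41 genes under that level. Of the 99 genes 58.6% thus passed the filter, against 60.9% of all nuclear loci in the tables. The rule used levels over all libraries and no difference between groups.

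RNA of freshly harvested seeds was sequenced after 8 h of imbibition, in 3 groups of 3 libraries. DOF6ioex seeds overexpress DOF6, which encodes a transcription factor of seed dormancy, once estradiol is given. They were imbibed either in mock, which the sample labels give as water, or in 50 µM β-estradiol. Seeds labelled rgl2-13 DOF6ioex, which carry the same construct and a mutant allele of the DELLA gene RGL2, were imbibed in 50 µM β-estradiol. Every group carries the construct, so an effect of estradiol itself and an effect of induced DOF6 cannot be told apart, and no rgl2-13 mock group was analysed here. The labels do not say whether replicates came from separate plants or harvests, so p-values measure the spread between these libraries, which may be technical.

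Photosynthesis converts light into chemical energy in the chloroplast. Photosystem II, the cytochrome b6f complex and photosystem I pass electrons from water to ferredoxin and NADPH, ATP synthase uses the proton gradient, and the Calvin cycle fixes carbon with both products. Most subunits are encoded in the nucleus, and their genes are known to be strongly induced by light during seedling greening. A mature Arabidopsis seed has lost most of the chlorophyll of the green embryo, and its plastids are not yet chloroplasts.

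In these imbibed seeds the photosynthesis genes were expressed at low to moderate levels, and the parts of the pathway differed widely. The mean level of a member over the 9 libraries ran from 0.913 FPKM (PSAH-1) to 103 FPKM (PPDK). The median member had a mean of 6.40 FPKM, against 9.05 FPKM for the 13679 genes tested. In all, 7 members averaged 40 FPKM or more, 9 averaged 10 to under 40, 17 averaged 5 to under 10 and 25 averaged under 5. The share under 5 FPKM was 43.1% of members and 34.7% of all genes tested. Of the 58 members 50 were at 1 FPKM or more in all 9 libraries, and single libraries had 51 to 58 members at that level.

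**Figure D1:**
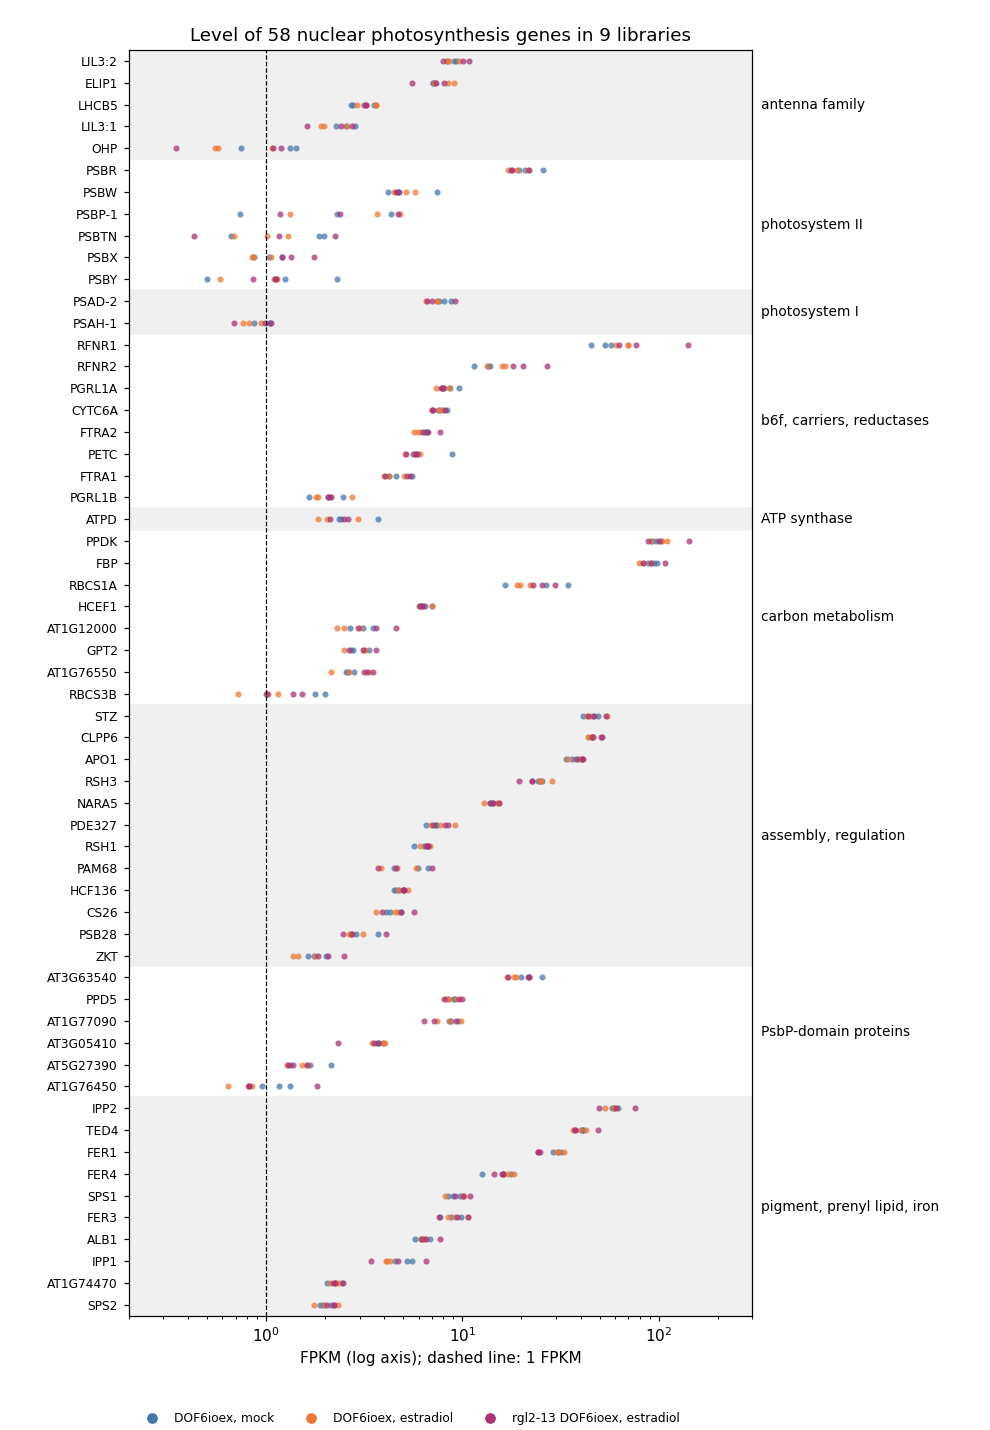
Level of each of the 58 nuclear photosynthesis genes, in rows grouped by role, as FPKM on a log axis, with 1 point per library coloured by group. The highest rows are PPDK, FBP and RFNR1, the photosystem and antenna rows lie mostly under 10 FPKM, and the colours of the groups are mixed in most rows.

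The members that made up most of this RNA were not subunits of the light-driven machinery. The 8 highest members were PPDK, FBP, RFNR1, IPP2, STZ, CLPP6, TED4 and APO1, and they held 56.3% to 63.6% of the members' summed FPKM in a library. The 15 members that encode thylakoid complex subunits or antenna proteins held 7.30% to 9.95%. All 58 together held 0.107% to 0.142% of the summed FPKM of all genes, with the highest share in replicate 1 of the libraries labelled rgl2-13 DOF6ioex and the other 8 libraries at 0.120% or less. As these are bulk samples, fewer cells of a type and less RNA per cell cannot be told apart.

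Library facts of the whole series bear on these values. The depth read from the steps between low FPKM values was 27700000 to 29800000 fragments per library, an estimate that differed by at most 1.08 times between libraries. On the first principal component of all tested genes (45.6% of the variance), replicate 1 of the libraries labelled rgl2-13 DOF6ioex lay at 37.3 and the other 8 libraries between -12.9 and 7.13. DOF6 was at 0.41 to 0.86 FPKM in the mock libraries and 21.4 to 52.3 FPKM in the 6 estradiol libraries. RGL2 was at 16.2 to 18.8 FPKM in the libraries labelled rgl2-13 DOF6ioex and at 7.57 to 13.1 FPKM in the other 6, so these libraries, with more RGL2 under a mutant label, are named by their label throughout. Of the FPKM total, 12.6% to 18.7% came from 10 seed storage genes, and the endosperm gene EPR1 was at 33815 FPKM or more in all 9 libraries. Of 9 leaf and silique markers 4 were in the tables, and of these TGG1 (a myrosinase gene of guard cells and myrosin cells) was at 28.4 to 44.9 FPKM while TGG2, MYB60 and ALC stayed at or below 0.54 FPKM.

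The light-harvesting antenna funnels excitation energy to the photosystems. The term covers no LHCA gene here, and of the LHCB genes only LHCB3, LHCB5 and LHCB6. Among the antenna-family genes with the term, the highest were mainly stress-related and light-harvesting-like relatives. Of 10 antenna-family genes with the term, 5 passed the level filter. LIL3:2, which encodes a light-harvesting-like protein that anchors geranylgeranyl reductase in the membrane, was the highest at 7.97 to 10.8 FPKM. ELIP1, an early light-induced chlorophyll-binding protein with a photoprotective role, followed at 5.55 to 9.03 FPKM. LHCB5, the minor antenna protein CP26 of photosystem II, was at 2.71 to 3.64 FPKM. LIL3:1 was at 1.62 to 2.85 FPKM and OHP, a one-helix protein, at 0.35 to 1.42 FPKM. The antenna genes under the filter included LHCB3 at 0.01 to 0.48 FPKM, LHCB6 at 0.08 to 0.38 FPKM and NPQ4, the PsbS protein of energy dissipation, at 0.08 to 0.34 FPKM. ELIP1 thus stood above its close relative ELIP2, which did not exceed 0.23 FPKM in any library.

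Photosystem II, which splits water, had 6 members of 12 genes with the term. PSBR, a small subunit of the oxygen-evolving side, was far above the others. Its values were 25.7, 20.9 and 19.3 FPKM in mock, 21.7, 18.9 and 17.2 FPKM in DOF6ioex with estradiol, and 21.9, 17.9 and 17.8 FPKM in the libraries labelled rgl2-13 DOF6ioex. The groups overlapped. PSBW, a small intrinsic subunit, was at 4.20 to 7.46 FPKM, with the highest value in mock replicate 1. The remaining 4 members were low and uneven. PSBP-1, an extrinsic protein of the oxygen-evolving complex, was at 2.31, 4.32 and 0.74 FPKM in mock, at 1.33, 3.69 and 4.84 FPKM in DOF6ioex with estradiol, and at 2.39, 1.18 and 4.71 FPKM in the libraries labelled rgl2-13 DOF6ioex. Low and high values of PSBP-1 occurred in every group, and its highest library was 6.54 times its lowest, the widest spread of the 58 members. PSBTN, PSBY and PSBX, small subunits, spanned 0.43 to 2.25, 0.50 to 2.31 and 0.85 to 1.75 FPKM. The other oxygen-evolving proteins were under the filter, with PSBO1 at 0.25 to 0.74 FPKM, PSBO2 at 0.05 to 0.39 FPKM and PSBQA at 0.14 to 0.71 FPKM.

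Photosystem I, which reduces ferredoxin, had 2 members of 12 genes with the term. PSAD-2, the subunit at which ferredoxin docks, was at 6.51 to 9.19 FPKM. Its near copy PSAD-1, whose coding sequence is 88.0% identical, was at 0.01 to 1.13 FPKM, and 0.01 is the lowest value the tables list. PSAH-1 was at 0.69 to 1.06 FPKM. It overlaps a gene on the opposite strand by 788 bases in TAIR10.1, and the counting is not stated to use strand, so reads of both genes cannot be told apart. The 10 photosystem I genes under the filter included PSAF at 0.44 to 0.96 FPKM, PSAL at 0.10 to 0.60 FPKM and PSAK at 0.01 to 0.14 FPKM. ATPD, the delta subunit of chloroplast ATP synthase, was the 1 member of 5 genes for ATP synthase and the NDH complex, at 1.85 to 3.70 FPKM. The 14 photosynthesis genes of the plastid genome in the tables, at most 1.49 FPKM, were outside the rule.

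The 8 members for the cytochrome b6f complex, electron carriers and reductases, of 9 genes with the term, were led by the isoforms of non-green tissue. RFNR1 and RFNR2 encode root-type ferredoxin-NADP reductases, known to run in reverse in non-green plastids, where they reduce ferredoxin from NADPH. RFNR1 was at 57.2, 53.4 and 45.0 FPKM in mock (51.9 ± 6.25, SD, n = 3), at 60.5, 69.8 and 70.1 FPKM in DOF6ioex with estradiol (66.8 ± 5.46, n = 3), and at 142, 62.5 and 76.6 FPKM in the libraries labelled rgl2-13 DOF6ioex (93.5 ± 42.2, n = 3). All estradiol libraries lay above all mock libraries, and 1 library stood far above the rest. RFNR2 was at 13.8, 13.6 and 11.5 FPKM in mock, at 13.3, 16.5 and 16.0 FPKM in DOF6ioex with estradiol, and at 26.9, 18.1 and 20.4 FPKM in the libraries labelled rgl2-13 DOF6ioex. Those last 3 libraries were the highest, while the first 2 groups overlapped. The leaf-type enzymes, which make NADPH in the light, were under the filter. FNR1 was at 0.14 to 0.61 FPKM and FNR2 at 0.01 to 0.11 FPKM, and the mean of RFNR1 was 148 times that of FNR1. The coding sequences of RFNR1 and FNR1 are 63.0% identical in TAIR10.1, and those of RFNR1 and RFNR2 77.7%.

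The bases upstream of both root-type genes are printed because these genes had the largest fitted differences of all members between the seeds labelled rgl2-13 DOF6ioex and mock. They are the 250 bases before the annotated gene start, 5′ to 3′ on the gene's strand, from RefSeq's TAIR10.1, at chr4:2740928-2741177 (minus strand) for RFNR1 and chr1:10809189-10809438 (minus strand) for RFNR2. Capitals mark the core sequence that DOF factors bind in general, AAAG, on either strand (CTTT when on the other strand).
RFNR1: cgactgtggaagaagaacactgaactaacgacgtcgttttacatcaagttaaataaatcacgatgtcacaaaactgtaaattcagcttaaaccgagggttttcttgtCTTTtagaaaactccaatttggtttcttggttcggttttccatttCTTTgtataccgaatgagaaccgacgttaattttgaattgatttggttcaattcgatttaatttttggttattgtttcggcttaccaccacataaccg
RFNR2: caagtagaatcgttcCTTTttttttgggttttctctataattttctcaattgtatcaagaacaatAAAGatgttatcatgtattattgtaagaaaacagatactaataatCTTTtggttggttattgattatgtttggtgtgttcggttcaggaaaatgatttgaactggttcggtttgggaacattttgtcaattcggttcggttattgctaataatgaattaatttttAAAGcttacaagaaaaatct
The window of RFNR1 holds 2 such cores and that of RFNR2 holds 4. The core is common, being in 98.2% of the 57 member windows and in 97.9% of 13529 windows of tested genes, so its presence does not set the members apart.

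The other carriers averaged from 2.10 FPKM (PGRL1B) to 8.21 FPKM (PGRL1A). PGRL1A (listed as PGR5-LIKE A) and PGRL1B, proteins of cyclic electron flow around photosystem I, were at 7.34 to 9.62 and 1.65 to 2.74 FPKM. CYTC6A, a lumen c-type cytochrome, was at 7 to 8.40 FPKM, and it overlaps a neighbouring gene by 837 bases. FTRA2 and FTRA1, the variable subunits of ferredoxin-thioredoxin reductase, were at 5.66 to 7.68 and 4.01 to 5.52 FPKM. PETC, the Rieske iron-sulphur protein of the b6f complex, was at 8.83 FPKM in mock replicate 1 and at 5.12 to 6.10 FPKM in the other 8 libraries.

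Carbon metabolism had 8 members of 9 genes with the term, and its highest genes serve sugar metabolism outside the Calvin cycle. PPDK, pyruvate orthophosphate dikinase, which interconverts pyruvate and phosphoenolpyruvate, was at 103, 96.6 and 92.3 FPKM in mock, at 91.8, 104 and 110 FPKM in DOF6ioex with estradiol, and at 142, 87.9 and 101 FPKM in the libraries labelled rgl2-13 DOF6ioex. Apart from the single value of 142 FPKM the groups covered the same range. FBP, the cytosolic fructose-1,6-bisphosphatase of sucrose synthesis, was at 79.1 to 108 FPKM. The plastid enzyme of the Calvin cycle, HCEF1, was at 6.04 to 7.01 FPKM, and the mean of FBP was 14.2 times that of HCEF1. AT1G12000, annotated as a phosphofructokinase family protein, was at 2.30 to 4.60 FPKM. AT1G76550, annotated as an alpha subunit of pyrophosphate-fructose 6-phosphate 1-phosphotransferase, was at 2.14 to 3.50 FPKM. The glucose 6-phosphate translocator gene GPT2 was at 2.51 to 3.63 FPKM.

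The small subunit of Rubisco, the carbon-fixing enzyme, came almost wholly from 1 of its 4 genes. RBCS1A was at 34.4, 26.6 and 16.5 FPKM in mock, at 19.0, 19.6 and 22.1 FPKM in DOF6ioex with estradiol, and at 25.6, 22.9 and 29.8 FPKM in the libraries labelled rgl2-13 DOF6ioex. The mock libraries held both the highest and the lowest value. RBCS3B was at 0.72 to 1.99 FPKM, and RBCS2B and RBCS1B, which the term does not cover, did not exceed 0.26 and 0.21 FPKM. Coding sequences of the last 3 are 96.7% to 97.3% identical, so how reads were split among them is uncertain, whereas RBCS1A is 90.4% to 90.6% identical to them. CA1, a plastid carbonic anhydrase, was the gene under the filter, at 0.01 to 0.11 FPKM.

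All 12 genes for assembly, repair and regulation passed the filter, the highest share of any role, where 60.9% of all nuclear loci did. STZ (ZAT10), a stress-induced zinc finger repressor, was at 41.4 to 54.5 FPKM. CLPP6, a proteolytic subunit of the plastid Clp protease, was at 43.5 to 51.4 FPKM, and APO1, an RNA-binding protein needed for photosystem I accumulation, at 33.7 to 41.2 FPKM. RSH3 and RSH1, enzymes of the alarmone ppGpp in plastids, were at 19.4 to 28.6 and 5.65 to 6.82 FPKM. NARA5, a kinase-family protein, was at 12.9 to 15.3 FPKM and PDE327 at 6.51 to 9.13 FPKM. The photosystem II assembly factors PAM68, HCF136 and PSB28 were at 3.74 to 7.02, 4.47 to 5.29 and 2.48 to 4.09 FPKM. CS26, a plastid cysteine synthase-family enzyme, was at 3.64 to 5.68 FPKM and ZKT at 1.38 to 2.50 FPKM. PAM68, HCF136 and PSB28 averaged 5.20, 4.88 and 3.01 FPKM over the 9 libraries, and the 6 photosystem II members from 1.11 (PSBY) to 20.2 FPKM (PSBR), with PSBW at 5.10 FPKM.

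The PsbP-domain proteins of the thylakoid lumen had 6 members of 10 genes with the term. AT3G63540 was the highest at 16.97 to 25.4 FPKM, but it overlaps the gene BB by 91 bases on the same strand. PPD5 and AT1G77090 were at 8.03 to 10 and 6.41 to 9.83 FPKM. AT3G05410, AT5G27390 and AT1G76450 were at 2.32 to 4.03, 1.28 to 2.14 and 0.64 to 1.83 FPKM. Both uncharacterised loci with the term, AT4G28755 and AT1G55673, were under the filter.

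Pigment, prenyl lipid and iron genes gave 10 members of 18 with the term. IPP2, an isopentenyl diphosphate isomerase of isoprenoid synthesis, was at 49.7 to 75.5 FPKM, though it overlaps a neighbour by 712 bases, and its relative IPP1 was at 3.44 to 6.55 FPKM. TED4 (HY1), the heme oxygenase that opens the way to the phytochrome chromophore, was at 36.4 to 49.3 FPKM, and its relatives HO2 and HO3 did not exceed 0.47 and 0.10 FPKM. The plastid ferritins, which store iron, were represented by FER1, FER3 and FER4. FER1 was at 28.8, 30.8 and 31.9 FPKM in mock, at 30.2, 30.8 and 32.8 FPKM in DOF6ioex with estradiol, and at 24.4, 24.2 and 25.0 FPKM in the libraries labelled rgl2-13 DOF6ioex. The last group lay wholly below the other 2, with little spread inside it (24.5 ± 0.432 FPKM, SD, n = 3). FER1 is overlapped over 1334 bases by a noncoding gene on the opposite strand. FER3 and FER4 were at 7.65 to 10.7 and 12.6 to 18.2 FPKM, but the files describe FER4 as a translation factor subunit, the product of a same-strand neighbour that overlaps it by 118 bases. SPS1 and SPS2, solanesyl diphosphate synthases for the plastoquinone side chain, were at 8.16 to 10.96 and 1.76 to 2.33 FPKM. AT1G74470, geranylgeranyl reductase, was at 2.05 to 2.47 FPKM.

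ALB1 (CHLD), the D subunit of the magnesium chelatase that opens chlorophyll synthesis, was at 5.75 to 7.69 FPKM, whereas its partners were lower. CHLI1 was at 0.30 to 1.09 FPKM, CHLI2 at 0.02 to 0.27 FPKM and GUN5, the H subunit, at 0.01 to 0.06 FPKM. The 3 protochlorophyllide oxidoreductase genes PORA, PORB and PORC did not exceed 0.15, 0.48 and 0.57 FPKM. CRD1, a subunit of the cyclase that closes the fifth ring, was at 0.29 to 0.92 FPKM. Of the 19 listed genes of chlorophyll synthesis 8 passed the filter. The genes that passed included HEMA2, an isoform of the first enzyme, at 12.8 to 16.0 FPKM, and FLU, a negative regulator of the pathway, at 21.9 to 34.7 FPKM.

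Of 8 listed chlorophyll breakdown genes, none of which carries the term, 7 passed the filter, and 5 of these were at 15.6 FPKM or more in every library. PPH, which removes the phytol tail, was at 132 to 181 FPKM, and its mean was 391 times that of PORC. NYE1 (SGR1), the magnesium dechelatase, was at 72.1 to 137 FPKM and its homologue NYE2 (listed as AT4G11910) at 84.1 to 177 FPKM. NYC1, a chlorophyll b reductase, was at 42.4 to 77.6 FPKM and PAO (listed as ACD1), which opens the ring, at 15.6 to 37.9 FPKM. The other 3 were lower. RCCR (listed as ACD2), which acts after PAO, was at 8.39 to 13.9 FPKM, below the 21.9 to 34.7 FPKM of FLU, of the synthesis list. HCAR was at 4.10 to 5.41 FPKM and NOL, under the filter, at 0.18 to 1.05 FPKM. Every library had more FPKM of each of the 5 higher genes than of any photosystem II, photosystem I or antenna member except PSBR.

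**Figure D2:**
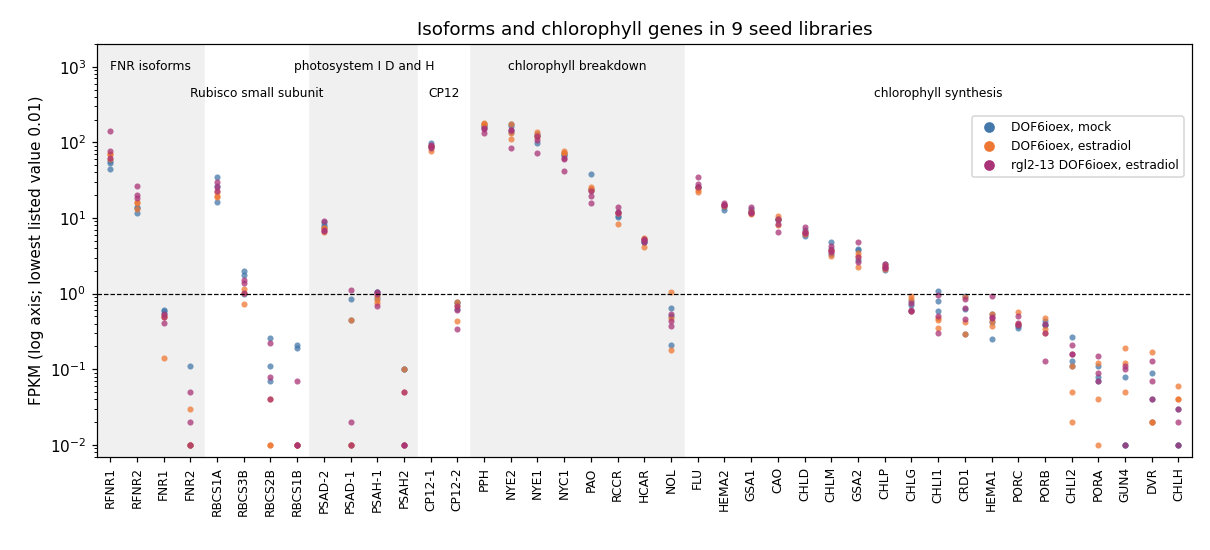
FPKM on a log axis of alternative isoforms and of listed chlorophyll genes, 1 point per library coloured by group, with a dashed line at 1 FPKM. RFNR1, RBCS1A, PSAD-2 and CP12-1 lie above their relatives FNR1, RBCS1B, PSAD-1 and CP12-2, and PPH, NYE1, NYE2, NYC1 and PAO lie above PORA, PORB, PORC and the H and I subunits of the chelatase.

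The rest of the Calvin cycle was uneven in the same way. Of 19 listed genes of the whole cycle 12 passed the filter, 3 of which are members. CP12-1, a regulatory protein of the cycle, was at 77.7 to 97.1 FPKM and CP12-2 at 0.34 to 0.77 FPKM. Transketolase AT3G60750 was at 44.3 to 80.0 FPKM. PRK, phosphoribulokinase, which acts in this cycle alone, did not exceed 0.20 FPKM, and SBPASE, the sedoheptulose bisphosphatase, was at 0.47 to 0.95 FPKM. RCA, Rubisco activase, was at 1.89 to 3.77 FPKM. The 18 listed regulators of greening all passed the filter, with PIL5 (PIF1), a phytochrome-interacting repressor of germination and greening, at 42.3 to 72.3 FPKM and the photoreceptor gene PHYA at 43.9 to 70.2 FPKM, while GPRI1 (GLK1) was at 0.79 to 1.35 FPKM and GLK2 at 9.01 to 12.9 FPKM.

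Whether induction of DOF6 moved the photosynthesis genes was asked by comparing estradiol with mock in DOF6ioex seeds. No member passed the test (limma on log2(FPKM + 1), Benjamini-Hochberg adjusted p under 0.05 over all 13679 genes), where 0.154% of all genes tested did. The lowest adjusted p of a member was 0.693 (AT3G63540). At an unadjusted p under 0.05 there were 2 members, AT3G63540 and RBCS3B, which is 3.45% of members against 6.82% of all genes. The fitted differences ran from -0.38 (RBCS3B) to 0.36 (RFNR1), and 34 of 58 (58.6%) were below 0, against 37.4% of all genes. Under median-of-ratios scaling these were 43 of 58 (74.1%) and 50.0%. Their median was -0.04, beside 0.04 for all genes. In 1 member, RFNR1, all estradiol libraries lay above all mock libraries, where 10.6% of genes did. In 5 members, AT3G63540, PSAD-2, FTRA2, IPP1 and AT1G76450, they lay below, where 4.31% of genes did. Here 57 of 58 members had a 95% interval of the difference inside 1 log2 unit either way, PSBP-1 being the exception (-0.60 to 1.31), and 44 inside 0.5. On log2(FPKM + 1) a member near 1 FPKM can fall by only about 1 unit even if lost. These counts therefore do not bound the fold changes of low members.

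Of the single genes in that comparison, AT3G63540 averaged 22.4 ± 2.75 FPKM in mock and 18 ± 0.924 FPKM in estradiol (SD, n = 3 each), a fitted log2 difference of -0.29. RBCS1A differed by -0.28, by -0.05 without mock replicate 1 and by -0.56 without mock replicate 3, passing the test in neither case. Mock replicate 1 had the highest value of 9 members (15.5%, against 4.22% of tested genes), namely PSBY, OHP, RBCS3B, RBCS1A, ATPD, PSBW, LIL3:1, PETC and PSBR. It also had the highest share of storage transcripts, 18.7%, with the other 8 libraries at 12.6% to 15.5%, and the part of this in the members' values was not tested. As a class, the 6 photosystem II members had a median deviation from their own means of 0.37 log2 units in mock replicate 1 and of -0.30 in mock replicate 3, while the median of the other 7 libraries lay between -0.15 and 0.09. The spread between mock libraries was thus wider for photosystem II genes than the class medians of the fitted group differences, -0.13, 0.04 and -0.14.

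The comparison of seeds labelled rgl2-13 DOF6ioex with DOF6ioex seeds, both in estradiol, addressed the RGL2 background. It shares the DOF6ioex estradiol libraries with the comparison above. No member passed the test, where 0.161% of all genes did, and the lowest adjusted p of a member was 0.138 (FER1). At an unadjusted p under 0.05 limma gave 6 members (FER1, RFNR2, RSH3, PSBX, AT1G12000 and ZKT), or 10.3% against 15.2% of all genes. The median difference of the members was 0.07, beside 0.11 for all genes, with 16 of 58 (27.6%) below 0, against 23.6% of all genes. Under both scaling alternatives 37 of 58 (63.8%) lay below 0, against 47.1% (median-of-ratios) and 46.0% (upper quartile) of all genes. The 3 groups of values that did not overlap downward were those of FER1, RSH3 and FER4, or 3 members where 4.96% of genes did the same. Upward they were RFNR2, RBCS1A, FTRA2, ZKT and PSBX, or 5 members where 15.8% of genes did.

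In that comparison FER1 had a fitted log2 difference of -0.34 ± 0.08 (SE) and RSH3 of -0.27 ± 0.09. RSH3 was at 24.9, 25.1 and 28.6 FPKM in DOF6ioex with estradiol and at 19.4, 22.6 and 22.5 FPKM in the libraries labelled rgl2-13 DOF6ioex, with 24.2 to 25.6 FPKM in mock. The last group lay below both others. RFNR2 differed by 0.47 ± 0.14 and RFNR1 by 0.39 ± 0.23. The difference of RFNR1 rested on replicate 1, which stood apart over all genes, and was 0.05 without it, and that of RFNR2 was 0.32 without it. That replicate had the highest value of 22 of the 58 members (37.9%), against 59.1% of all tested genes, and replicate 2 of the same label had the lowest value of 15 members (25.9%), against 8.39%. EXPA2, an expansin of the endosperm, rose in this comparison, with 2.10 to 4.07 FPKM in DOF6ioex and 8.79 to 12.01 FPKM in the libraries labelled rgl2-13 DOF6ioex (adjusted p = 0.00277 in limma, 0.00104 to 0.122 over the alternatives, the highest without the level filter). Of the 3 endosperm markers tested EXPA2 was the 1 called here, while EPR1 and ICE1 were not. Of the 3, 1 had a fitted difference below 0, and their median was 0.21. Storage transcripts were at 14.8% to 15.5% and 12.6% to 13.6% of the FPKM total. Their part in the members' values was not tested.

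The libraries labelled rgl2-13 DOF6ioex and mock differ in both label and treatment, and share libraries with both comparisons above. Again no member passed the test, where 0.57% of all genes did. RFNR2 came nearest, with a fitted log2 difference of 0.69 ± 0.14 (SE) and an adjusted p of 0.0518 in limma. FER1 followed at -0.30 ± 0.08 with an adjusted p of 0.0905, and RFNR1 at 0.76 ± 0.23 with an adjusted p of 0.113. When the first replicate labelled rgl2-13 DOF6ioex was left out, RFNR2 passed the test at 0.54 (adjusted p = 0.0418 in limma) and RFNR1 was at 0.42 (adjusted p = 0.116). The alternatives put the adjusted p of RFNR2 between 0.0229 and 0.187 and that of FER1 between 0.0279 and 0.306 in limma.

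At an unadjusted p under 0.05 there were 4 members in this last comparison (RFNR2, FER1, RFNR1 and RSH3), or 6.90% against 25.2% of all genes. The groups did not overlap in 4 members upward (RFNR1, RFNR2, HCF136 and AT1G76550), where 27.3% of genes did the same, and in 3 downward (FER1, RSH3 and PGRL1A), where 3.49% did. The members' median was 0.02, beside 0.14 for all genes, and 25 of 58 (43.1%) lay below 0, against 19.9% of all genes. That count was 50 of 58 (86.2%, against 49.2% of all genes) under median-of-ratios and 49 of 58 (84.5%, against 47.2%) under upper quartile scaling. Under median-of-ratios scaling the medians of members and of all genes were -0.11 and 0.00, so that the members' median lay 0.12 below that of all genes under either scaling. The storage transcripts were at 12.6% to 13.6% of the FPKM total in the libraries labelled rgl2-13 DOF6ioex and at 14.6% to 18.7% in mock. EXPA2 was at 3.81 to 5.10 FPKM in mock and passed the test against it (adjusted p = 0.0193 in limma), but not without mock replicate 1 (0.0786) or 2 (0.124), with the replicate block (0.0557) or without the level filter (0.130). The other 2 endosperm markers tested, EPR1 and ICE1, did not pass, ICE1 was at 24.6 to 27.7 FPKM in all libraries, and NAC025, AT3G12910 and RGE1 (ZOU) stayed at or below 0.12 FPKM. Their part in the members' values was not tested.

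**Figure D3:**
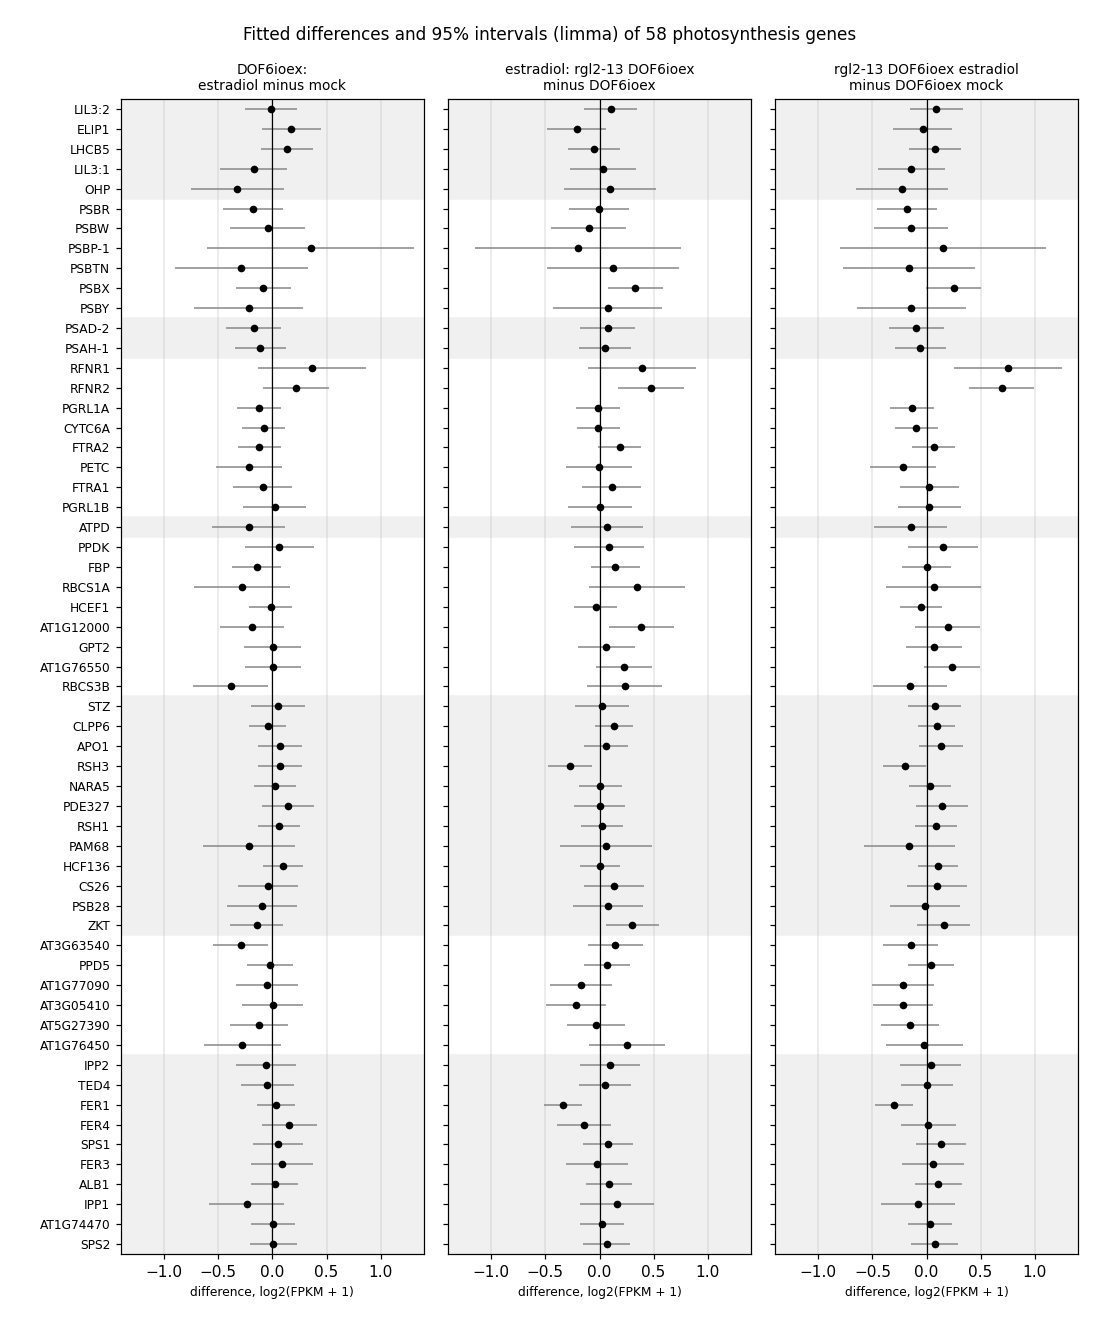
Fitted differences in log2(FPKM + 1) between groups for the 58 genes, with 95% intervals from limma (points and bars), 1 panel per comparison. Most points lie within 0.5 of 0, the widest bars belong to PSBP-1, and in the right panel RFNR1 and RFNR2 lie at 0.76 and 0.69 and FER1 at -0.30.

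**Figure D4:**
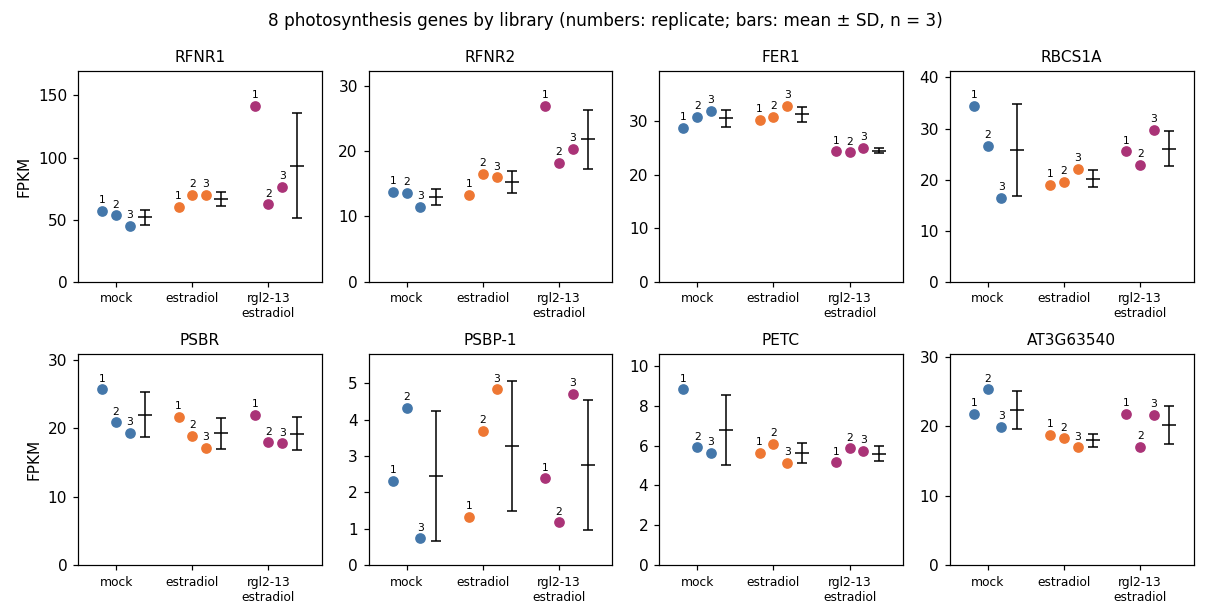
FPKM of 8 photosynthesis genes in each library, numbered by replicate, with the mean and SD of each group (n = 3) beside the points. The FER1 points labelled rgl2-13 lie at 24.2 to 25.0, below the other 6, RFNR1 has 1 point at 142, and the mock points of RBCS1A run from 16.5 to 34.4.

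No gene of the following lists passed the test in any of the 3 comparisons, where 0.154%, 0.161% and 0.57% of all genes tested did. The counts were 0 of 8 tested for chlorophyll synthesis, 0 of 7 for chlorophyll breakdown, 0 of 12 for the Calvin cycle and 0 of 18 for greening regulators. The synthesis and Calvin cycle lists include 2 and 3 members already counted above. With shares this low over all genes, a count of 0 is unremarkable in lists of this size. Of the 7 breakdown genes, 5 had fitted values below 0 when the estradiol libraries labelled rgl2-13 DOF6ioex were set against those of DOF6ioex. Their median was -0.27, beside 0.11 for all genes, and the lowest adjusted p was 0.182 in limma (NYC1). Without replicate 1 of that label the median was -0.17, beside 0.04 for all genes, with 4 of 7 below 0. NYC1 was at 71.6, 72.3 and 77.6 FPKM in DOF6ioex with estradiol and at 42.4, 62.1 and 59.5 FPKM in the libraries labelled rgl2-13 DOF6ioex. The groups of NYC1 did not overlap, and replicate 1 was again the farthest out. In estradiol against mock the breakdown median was 0.00, beside 0.04 for all genes.

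Sequence upstream of the genes was a feature that the rule did not use. The G-box CACGTG, a sequence bound by the HY5 and PIF families of light signalling factors, was in the 250 bases upstream of 11 of 57 members with a window (19.3%), against 8.32% of 13529 windows of tested genes and 6.49% of 27443 windows of nuclear protein-coding genes. The difference in share was not tested. The G-box was also in 17.1% of the 41 windows of photosynthesis genes under the filter. The 11 members were SPS2, AT1G77090, SPS1, FER4, PSBTN, ELIP1, HCEF1, FER3, ATPD, PSB28 and OHP. The I-box GATAAG, an element of light-regulated promoters, was in 14.0% of member windows, 12.6% of tested windows and 26.8% of windows under the filter. Shares were close for CCAATC (10.5% and 10.2%), and were 5.26% and 2.39% for the evening element AAAATATCT, or 3 member windows. All motifs were searched on both strands.

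ELIP1 and HCEF1, an antenna-family and a Calvin cycle gene, are printed as 2 of the 3 members whose windows hold both the G-box and the I-box, the other being SPS1. The windows are at chr3:8085670-8085919 (minus strand) and chr3:20016587-20016836 (plus strand) in RefSeq's TAIR10.1, and capitals mark the G-box (CACGTG), the I-box (GATAAG, or CTTATC on the other strand) and the DOF core (AAAG or CTTT). In HCEF1 an I-box and a DOF core share a base.
ELIP1: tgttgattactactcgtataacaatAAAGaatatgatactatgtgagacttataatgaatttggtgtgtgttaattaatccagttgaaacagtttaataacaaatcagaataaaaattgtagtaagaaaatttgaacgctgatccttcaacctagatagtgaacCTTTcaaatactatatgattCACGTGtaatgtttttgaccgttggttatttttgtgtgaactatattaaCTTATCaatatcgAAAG
HCEF1: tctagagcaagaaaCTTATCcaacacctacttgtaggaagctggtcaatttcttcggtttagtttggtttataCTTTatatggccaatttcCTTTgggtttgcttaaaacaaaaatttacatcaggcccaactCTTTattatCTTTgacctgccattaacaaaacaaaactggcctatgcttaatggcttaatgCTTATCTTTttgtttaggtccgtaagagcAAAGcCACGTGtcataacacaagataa
The G-box begins at 66 bases before the start of ELIP1 and at 22 bases before that of HCEF1. Neither gene passed the test in any comparison, with ELIP1 at 0.17, -0.21 and -0.04 and HCEF1 at -0.02, -0.04 and -0.05 on the log2 scale, in the order reported. A match is a run of letters and no evidence of binding.

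The level filter set which genes were described. Just inside it were PSAH-1, which was at 1.04 FPKM or more in 3 libraries, PSBY at 1.14, AT1G76450 at 1.16 and OHP at 1.19 FPKM. Just outside were SEP1 at 0.99, PPD6 and AT4G28755 at 0.89 and CRD1 at 0.86 FPKM. SEP1, a stress-enhanced antenna-like protein, was at 1.54 and 2.31 FPKM in 2 libraries and at 0.01 FPKM in 4.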

How the data were processed

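RNA of 9 seed libraries, 3 per group, was sequenced, and HISAT is named as aligner per the submitters' processing notes. Its version, the build and the quantifying tool are not stated there. The authors deposited pairwise tables of FPKM per gene. The deposited headers of 1 table say RPKM instead, but a library that it shared with another table had the same values in both, so both names were read as 1 unit. After joining by gene, absent values were set to 0.01, the lowest value listed. The authors' own pairwise tests were not used.

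A count test had been planned should the files hold counts. As they hold FPKM, limma 3.58.1 in R 4.3.3 was fitted with a mean-variance trend to log2(FPKM + 1) of the 13679 genes that passed the members' level filter. The model had a mean per group over all 9 libraries. The pseudocount of 1 understates differences of low genes. The script was tested on simulated data. Depth was estimated from low FPKM values, of which 74.5% to 83.1% lay within 0.15 of whole fragments, where 30% would by chance, so no fragment counts or intervals were derived.

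The members, roles and gene lists were chosen with earlier results of these data known. Genes were named by rule, taking up to 8 largest fitted rises and 12 largest fitted falls per comparison among members averaging 5 FPKM or more in a group, and the highest per role and list. Further members are named to account for the whole set, outside that rule. The files name no build. Table lengths equalled the longest TAIR10.1 transcript for 55.8% of 22230 loci, so sequences, overlaps and identities were taken by gene identifier from TAIR10.1 alone. Motifs were searched in 250 bases upstream of its gene starts, in place of a promoter table.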

Additional observations from a re-analysis of the deposited data

How the results depend on the processing

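Results were recomputed with median-of-ratios or upper quartile scaling, with a pseudocount of 0.1, without the level filter, on only the 6 libraries compared, with the replicate number as a block, and without each library in turn. The count of members called was 0 under all 15 alternatives for estradiol against mock and for the label comparison in estradiol. Over all genes, those alternatives called 4 to 100 and 4 to 27 genes. For the libraries labelled rgl2-13 DOF6ioex against mock, 2 members were called under median-of-ratios and 2 under upper quartile scaling (RFNR2 and FER1). All genes called were then 136 and 130 of 13679, against 78 in the main fit. With a library left out 0 to 2 members were called, being 1 without replicate 1 of that label (RFNR2) and 2 without replicate 2 (RFNR1 and RFNR2). In these last 2 fits 130 and 225 of all genes were called. Scaling moved the median of all genes by about 0.10 and 0.14 log2 units in the comparisons with that label, from 0.11 to 0.01 and from 0.14 to 0.00. The members' medians moved with it, to -0.025 under median-of-ratios and -0.020 under upper quartile scaling in the label comparison in estradiol, and to -0.11 under both against mock. With a library left out the medians ran from -0.07 to -0.03, from 0.02 to 0.12 and from -0.04 to 0.08 in the 3 comparisons in the order reported. The 48 named genes with a fit include DOF6, RGL2, EXPA2 and other genes that are not members. Of their 2160 values 1991 kept their direction and their side of the threshold, and 150 uncalled values changed sign. A further 8 passed the threshold anew and 11 no longer passed it. As no member passed in the main fit, those 11 were all of genes that are not members. No called value changed sign.

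The groups share replicate numbers, but same-numbered libraries did not deviate together, with correlations of -0.12, -0.02 and -0.31 for estradiol and mock, -0.41, -0.10 and -0.22 for the label comparison in estradiol, and 0.25, -0.27 and 0.18 for the last. The deposited comparisons pair libraries by number, but the labels do not say what else same-numbered libraries share. With the replicate number as a block, 0 members were called in each comparison, where 12, 11 and 12 of 13679 genes were. The members' medians were then -0.04, 0.07 and 0.02. FPKM hide the depth behind each value, so no counting error is given.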
